A study of Rattus norvegicus with 15 samples.

Results

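The miRNA repertoire of the control rat heart was described from the 5 control arrays of a series of 15 arrays. The members were all 350 rat miRNAs that these arrays report, each read as a total gene signal, which is the background-subtracted fluorescence of a miRNA summed over its probes. The control group held hearts of male Sprague-Dawley rats given vehicle, with no streptozotocin, fasting or insulin. The other 10 arrays, 5 for each of the other groups, held hearts of diabetic rats and were not analysed here. The series was set up to compare hearts under fluctuating glucose with hearts under steadily high glucose. The labels give no age. They also do not tie an array to an animal of its own, and the spread between arrays may therefore be technical in part, p-values included.

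MicroRNAs are short RNAs cut from a hairpin precursor. Loaded into an Argonaute protein, a miRNA pairs with messenger RNAs mainly through its seed, bases 2 to 8, and lowers the translation or the stability of its targets. MiRNAs with the same seed are counted as a family because their target sets overlap. Either strand of the hairpin can be loaded, and the strand found at the lower level was marked with a star in the older naming that the array uses. In heart muscle, miR-1 and miR-133 are made from common precursors and act on growth, excitation and contraction, and miR-208 and miR-499 lie within genes of myosin heavy chains. In a whole-heart extract, fewer cells of a type and less RNA per cell cannot be told apart.

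The sequences of the 5 seed families with the largest signal are printed here, since the order of the repertoire turns on their seeds and on the few bases that separate their members. They are mature sequences from RefSeq (GRCr8 assembly), 5′ to 3′, with the seed in capitals.
miR-1: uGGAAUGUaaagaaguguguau
miR-206: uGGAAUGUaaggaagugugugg
miR-133b: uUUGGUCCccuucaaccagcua
miR-133a: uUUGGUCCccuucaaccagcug
let-7f: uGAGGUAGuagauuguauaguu
let-7a: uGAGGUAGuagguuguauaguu
let-7c: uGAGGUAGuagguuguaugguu
let-7b: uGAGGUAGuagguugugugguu
let-7i: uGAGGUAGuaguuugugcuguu
let-7d: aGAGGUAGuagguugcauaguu
let-7e: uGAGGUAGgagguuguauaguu
miR-98: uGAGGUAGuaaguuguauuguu
miR-29b: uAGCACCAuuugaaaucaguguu
miR-29a: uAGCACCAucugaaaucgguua
miR-29c: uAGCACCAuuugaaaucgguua
miR-22: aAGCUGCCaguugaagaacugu

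MiR-1 and miR-206 share their seed and differ by A11G, A21G and U22G, where the base of the first-named miRNA comes first and positions are counted from 1 at the 5′ end. MiR-133b and miR-133a differ by A22G, the last base, alone. Single differences also separate let-7a from let-7c (A19G), from let-7e (U9G) and, with let-7f named first, from let-7f (A12G), and separate miR-29a from miR-29c (C10U). Signals of such close relatives can be mixed on an array, and how much each probe took up of a relative was not tested. In all, 235 of the 350 array miRNAs were matched to a RefSeq mature sequence, 67 by their exact name and 168 through a table of arms. Of the 161 miRNAs detected on all arrays 140 were matched, and the matched miRNAs carried 97.4% of the signal.

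The arrays differed somewhat in depth, and background was low on all of them. The summed signal over the miRNAs ran from 443487 to 608978, and the median of the negative control spots from 1.35 to 2.28. No spot was saturated (0 on each array), and 187 to 294 of 7000 miRNA spots per array were left out for outlier flags. Control replicates 1 and 3, which lay on different slides, differed by less than the error that the scanner software states, with a reduced chi-square of 0.913 over 161 miRNAs. They were averaged and counted as 1 sample, so means and SDs are over n = 4 distinct samples, while ranges are over the 5 arrays. The pair was picked by this value in these data. The labels number them as separate replicates, and whether they hold 1 sample was not tested. The other pairs among replicates 1 to 4 gave a reduced chi-square of 1.42 to 1.77. Control replicate 5 stood apart, with 3.99 to 4.95 against the others, and it held the highest or the lowest scaled value of 109 of the 161 miRNAs detected on all arrays (67.7%). Replicates 1 and 2 lay on slide 1 and replicates 3, 4 and 5 on slide 2. Between the slides no miRNA of 161 passed an adjusted p of 0.05 in limma (percent called 0), and 5 did so at that unadjusted p. The 5 arrays entered this fit as separate samples, although replicates 1 and 3 lay on opposite slides. Without replicate 1 or without replicate 3 the count was also 0 (limma, 7 and 8 unadjusted). So small a comparison does not show that the slides were alike. With 5 arrays, precision is limited throughout by their number.

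From 166 to 188 miRNAs were present on a control array. The scanner software detected 167 miRNAs in replicate 1, 174 in replicate 2, 166 in replicate 3, 188 in replicate 4 and 179 in replicate 5. Of the 350 miRNAs, 161 (46%) were detected on all arrays, 153 (43.7%) on none and 36 on some. Without replicate 5 the number detected on all arrays was also 161. Detected did not mean bright: 21 of the 161 had a median signal under 25, 36 from 25 to 100, 54 from 100 to 1000, 38 from 1000 to 10000 and 12 over 10000. The miRNAs not detected on all arrays together held 0.0834% ± 0.022 (SD, n = 4) of the signal.

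A few miRNAs carried most of the signal. The brightest 3 miRNAs, miR-1, miR-133b and miR-22, together made 31.0% ± 2.18 (SD, n = 4) of the sum. The brightest 10 made 56.9% ± 1.86 (SD, n = 4), with 54.8% to 58.6% over the arrays and 57.2% without replicate 5. The brightest 20 made 75.7% ± 1.12 (SD, n = 4), the brightest 50 made 94.9% and the brightest 100 made 99.3%. The same miRNAs led on every array: all 10 of the first 10 ranked among the first 10 on each array, and so did 19 of the 20 for the first 20. A signal also depends on how well a miRNA is labelled and bound by its probes, so the order is one of array signals and not of molecule numbers.

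**Figure D1:**
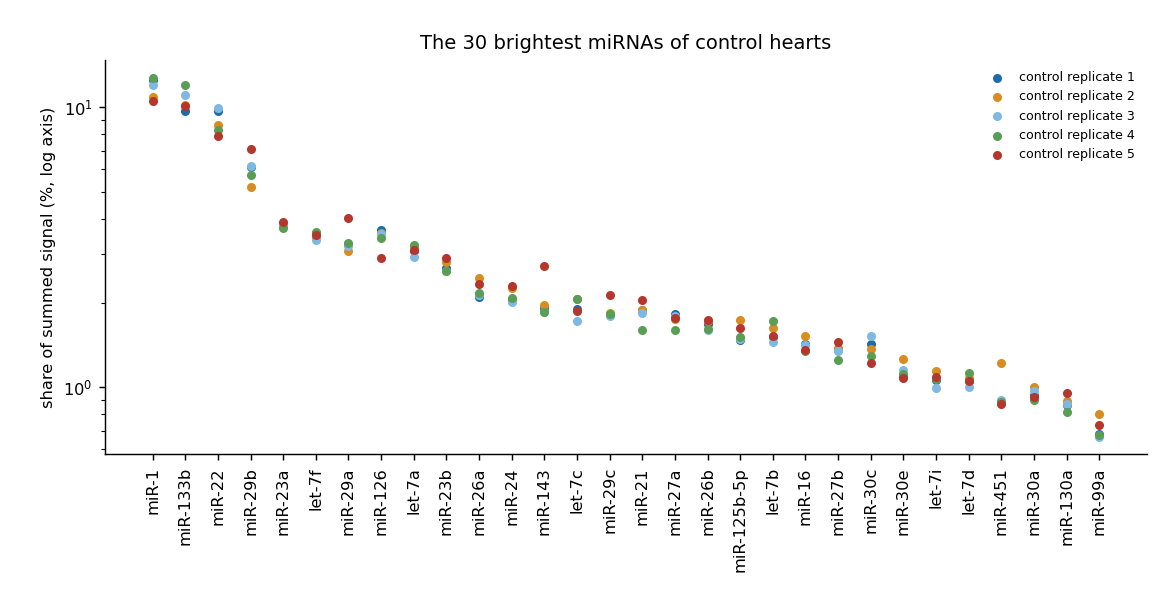
Share of the summed signal (percent, log axis) of the 30 brightest miRNAs, ordered by their mean, with 1 point for each of the 5 control arrays. MiR-1 lies between 10.6% and 12.8% and the 20th, let-7b, between 1.46% and 1.72%; the points of replicate 5 lie above the other arrays for miR-29b, miR-29a and miR-143 and below them for miR-126.

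The muscle miRNA miR-1, which represses genes of growth and of ion channels in heart muscle, was the brightest on all 5 arrays. Its total gene signal was 55695 in replicate 1, 52088 in replicate 2, 56130 in replicate 3, 77667 in replicate 4 and 60180 in replicate 5, and its share of the sum was 12.6%, 10.9%, 12.03%, 12.8% and 10.6% in the same order. The brighter array 4 gave the highest signal, but in shares replicates 1, 3 and 4 lay above replicates 2 and 5. The mean share was 11.6% ± 1.06 (SD, n = 4).

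MiR-133b, which acts with miR-1 in muscle, came second in mean share. Its share was 9.67% in replicate 1, 10.2% in replicate 2, 11.0% in replicate 3, 12.01% in replicate 4 and 10.1% in replicate 5, a mean of 10.7% ± 0.91 (SD, n = 4). It was lower than miR-1 on all 5 arrays, but only 1.09-fold. When the brightest probe stood for each miRNA, the order of the pair turned, with miR-133b at 12.9% and miR-1 at 10.4%.

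MiR-22, an abundant muscle miRNA linked to hypertrophic growth, followed. Its share was 9.72% in replicate 1, 8.68% in replicate 2, 9.94% in replicate 3, 8.33% in replicate 4 and 7.87% in replicate 5, a mean of 8.67% ± 0.84 (SD, n = 4). In replicate 1 it lay just above miR-133b and in the other 4 arrays below it. MiR-29b, which represses collagens and other matrix genes, had rank 4 on every array, with shares of 6.14%, 5.20%, 6.18%, 5.72% and 7.10% in replicates 1 to 5. Replicate 5 was its highest and replicate 2 its lowest.

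Below these 4 the ranks were close. From the fifth place on, the order of mean shares was miR-23a, let-7f, miR-29a, miR-126, let-7a, miR-23b, miR-26a, miR-24, miR-143, let-7c, miR-29c, miR-21, miR-27a, miR-26b, miR-125b-5p and let-7b, from 3.79% ± 0.079 (SD, n = 4) for miR-23a to 1.59% ± 0.11 (SD, n = 4) for let-7b. Of the 19 pairs of neighbours among the 20 brightest, 8 had the same order on all 5 arrays and 10 differed by more than the SD of their log2 ratio. The neighbours that did not differ beyond that SD were let-7f and miR-29a, miR-29a and miR-126, miR-126 and let-7a, miR-24 and miR-143, miR-143 and let-7c, let-7c and miR-29c, miR-29c and miR-21, miR-27a and miR-26b, and miR-125b-5p and let-7b. MiR-29a moved between ranks 5 and 9 and miR-126, the endothelial miRNA, between ranks 6 and 10. MiR-29a was 1 of the miRNAs highest in replicate 5, with shares of 3.24%, 3.08%, 3.18%, 3.28% and 4.01% in replicates 1 to 5. MiR-126 was lowest there, with 3.64%, 3.55%, 3.54%, 3.41% and 2.89%.

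Grouped by seed, the control heart was led by the let-7 family, ahead of the muscle families of miR-1 and miR-133. The 350 miRNAs held 179 seeds among the matched sequences, and 102 seeds had a member detected on all arrays, 20 of them with at least 2 such members. The let-7 family, which restrains growth and is broadly expressed in adult tissues, held 12.8% ± 0.43 (SD, n = 4) of the signal through 8 members, all detected on all arrays. Its share was 12.6%, 12.99%, 11.9%, 13.2% and 12.6% in replicates 1 to 5, so the arrays differed little. No member dominated: let-7f made 27.5% of the family. In contrast miR-1 stood almost alone for its seed (11.6% ± 1.06, SD, n = 4), since miR-206, a miRNA of skeletal muscle, was detected on no array, with a signal from -4.20 to 2.09. The miR-29 family held 11.3% ± 1.35 (SD, n = 4), the miR-133 family 11.0% ± 0.96 (SD, n = 4) and the miR-22 seed 8.67% ± 0.84 (SD, n = 4). These 5 seeds together made 55.4% and the first 10 seeds 76.1%. The order of the first 4 families varied between arrays: miR-1 exceeded let-7 in replicate 3 (12.03% against 11.9%), and the miR-29 family exceeded it in replicate 5 (13.3% against 12.6%). With the brightest probe the miR-133 seed came first with 13.4% and let-7 second.

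**Figure D2:**
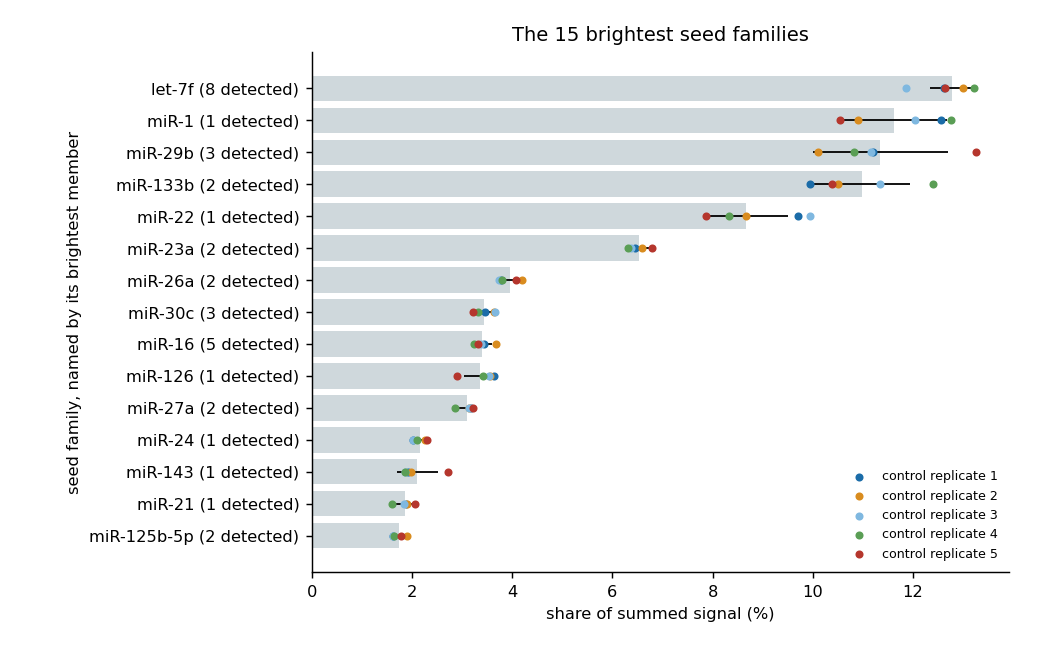
Share of the summed signal (percent) of the 15 brightest seed families, each named by its brightest member with the number of matched members detected on all arrays. Members without a matched sequence, such as miR-30b-5p and miR-30d, are not counted. Bars are means and lines SDs over 4 distinct samples, and points are the 5 control arrays; the miR-29 family is highest in replicate 5 (13.3%) and the miR-133 family in replicate 4 (12.4%).

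Within the let-7 family the members spanned a wide range of signal. Let-7f had a median signal of 16356 and let-7a of 15145, and let-7f exceeded let-7a on all arrays by 1.12-fold. The order went on with let-7c at 9869, let-7b at 7764, let-7i at 5476, let-7d at 5171, let-7e at 1848 and miR-98 at 433 (medians over the 5 arrays). Let-7a exceeded let-7e, which differs from it by U9G, by 8.32-fold (7.64 to 9.07 over the arrays), and exceeded miR-98 by 34.2-fold (32.8 to 36.9). The SDs of these ratios were 0.10 and 0.069 on the log2 scale (n = 4).

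The miR-29 family, known for its repression of collagen genes, had 3 members at comparable signals. The total gene signal of miR-29b was 27234, 24825, 28844, 34864 and 40498 in replicates 1 to 5. That of miR-29a was 14386, 14699, 14856, 19964 and 22881, and that of miR-29c was 8030, 8786, 8382, 11132 and 12201. All 3 were highest in replicate 5. MiR-29b exceeded miR-29a by 1.78-fold (1.69 to 1.94 over the arrays) and miR-29a exceeded miR-29c by 1.78-fold (1.67 to 1.88), so the order held on every array. MiR-29b comes from 2 hairpins with the same mature sequence, beside miR-29a on chromosome 4 (chr4:60617955-60618414 for both hairpins, GRCr8) and beside miR-29c on chromosome 13 (chr13:109098831-109099446), and the array cannot tell the copies apart.

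MiRNAs of neighbouring muscle hairpins differed widely in signal. MiR-1 and miR-133a are neighbours on chromosome 18 (chr18:2160327-2160413 and chr18:2157872-2157958, minus strand, within the span of Mib1), yet the signal of miR-1 was 36.3-fold that of miR-133a (32.0 to 46.2 over the arrays; 24.1-fold with the brightest probe). MiR-133a had signals of 1207, 1508, 1480, 2426 and 1596 in replicates 1 to 5, highest in replicate 4. MiR-133b exceeded miR-133a, from which it differs in the last base, by 33.3-fold (30.2 to 36.1 over the arrays; log2 5.06 ± 0.12, SD, n = 4). The gene of miR-133b lies on chromosome 9 (chr9:30594582-30594665) beside that of miR-206 (chr9:30590697-30590780), which was detected on no array. The relation of these 4 signals to molecule numbers was not tested.

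The myosin miRNAs were dimmer than miR-1, at ranks 31 and 35. MiR-208, from the span of Myh6, the gene of the alpha heavy chain of cardiac myosin (chr15:32395552-32395634), had signals of 2761, 3411, 2967, 3221 and 2113 in replicates 1 to 5. It was the most variable of the striated muscle miRNAs (SD 0.41 on the log2 scale, n = 4), with replicate 5 as the lowest array and a rank from 33 to 41. MiR-499, from the span of Myh7b (chr3:164570612-164570676), had signals of 3201, 3519, 3331, 4756 and 3661, and its SD was 0.13. MiR-499 exceeded miR-208 on every array, by 1.03-fold to 1.73-fold.

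Neighbouring hairpins elsewhere also differed in signal. A position was found for 322 of the 350 miRNAs, from 264 hairpins. Hairpins on the same strand within 10 kb of the next formed 45 clusters, of which 26 held at least 2 miRNAs detected on all arrays, 10 held 1 and 9 held none. The pair miR-143 and miR-145, known from vascular smooth muscle and encoded within the noncoding gene Carmn on chromosome 18 (chr18:57369983-57371453), had the widest gap of the pairs compared. MiR-143 had signals of 8481, 9426, 8639, 11267 and 15516 in replicates 1 to 5 and miR-145 had 32.4, 34.5, 40.3, 57.8 and 72.3, a ratio of 228-fold (195 to 273; log2 7.83 ± 0.21, SD, n = 4). Both were highest in replicate 5. MiR-322, a member of the miR-16 seed family, exceeded its neighbour miR-503 by 140-fold (113 to 192), and the red cell miRNA miR-451 exceeded miR-144 by 8.01-fold (7.26 to 8.83).

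Other clusters were even. MiR-195 exceeded miR-497, both of the miR-16 seed family and encoded together on chromosome 10 (chr10:55450171-55450581), by 1.43-fold (1.39 to 1.49). MiR-23a exceeded miR-27a on chromosome 19 by 2.19-fold (2.07 to 2.32), and miR-23b exceeded miR-27b on chromosome 17 by 2.02-fold (1.94 to 2.08). The 2 clusters are copies of each other: miR-23a and miR-23b differ by U19A alone, miR-27a and miR-27b by C19U alone, and miR-24 comes from both. Together the miR-23 seed held 6.52% ± 0.21 (SD, n = 4), the miR-27 seed 3.09% ± 0.17 (SD, n = 4) and miR-24 2.17% ± 0.13 (SD, n = 4) of the signal. These miRNAs act in endothelial and muscle cells.

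The rest of the first 12 seed families were the miR-26, miR-30 and miR-16 families and miR-126. The miR-26 family, encoded within the spans of the small phosphatase genes Ctdspl and Ctdsp1, held 3.95% ± 0.21 (SD, n = 4). The matched members miR-30c, miR-30e and miR-30a of the miR-30 family, abundant in heart muscle, held 3.43% ± 0.2 (SD, n = 4). MiR-30b-5p and miR-30d had no matched sequence and are not part of this share. Both were detected on all arrays, at median signals of 2086 and 2010, so the share is of a part of the family. Its place among the families is that of its matched members. The miR-16 family, a brake on the cell cycle, held 3.40% ± 0.19 (SD, n = 4) through 5 detected members, and miR-126 held 3.36% ± 0.32 (SD, n = 4).

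Some chromosome regions had almost no detected miRNA. On chromosome 6, 46 miRNAs on the array come from the region chr6:134298094-134579793 (GRCr8), which holds the imprinted Dlk1-Dio3 miRNAs known from embryo and brain. Of these, 2 were detected on all arrays (miR-494 and miR-136), 5 on some and 39 on none. On chromosome X, none of the 10 miRNAs of the region chrX:150444098-150478611, which includes miR-743a and miR-881 and is known from testis, was detected on any array (0 of 10, the highest median signal being 0.60). The cluster of miR-290 to miR-292 on chromosome 1 (chr1:74879469-74880135), known from embryonic stem cells, also had no detected member (0 of 5). By chromosome, 4 of 52 array miRNAs of chromosome 6 were detected on all arrays, 22 of 47 of chromosome X and 23 of 31 of chromosome 10. For comparison, 46% of all miRNAs reported by the arrays were detected on all arrays and 43.7% on none. Differences of the regions and chromosomes from these shares were not tested.

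The detected and undetected sets were also described by gene position and base composition. Among miRNAs with a single locus, 73 of 129 detected on all arrays (56.6%) lay within the span of a protein-coding gene. So did 18 of 32 detected on some (56.25%) and 46 of 136 detected on none (33.8%). MiRNAs of the chromosome 6 region are part of these counts, and the differences were not tested. Of the matched miRNAs 76 of 140 detected on all arrays (54.3%) began with U, the base that Argonaute proteins hold at the 5′ end. So did 9 of 22 detected on some (40.9%), 31 of 73 detected on none (42.5%) and 17 of the 20 brightest (85%). MiRNAs that began with U carried 76.0% ± 0.97 (SD, n = 4) of the matched signal. Of miRNAs with a GC content under 35%, 20 of 28 were detected on all arrays (71.4%). The share was 45 of 61 (73.8%) from 35% to 45%, 59 of 100 (59%) from 45% to 55% and 16 of 46 (34.8%) at 55% or more. Across the 140 detected miRNAs, GC content and mean log2 level had a Pearson r of -0.15 and a Spearman rho of -0.12, as a description; the miRNAs share arrays and labelling and are not independent.

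Star strands were a small part of the repertoire. Of the 58 miRNAs with a star on the array, 20 (34.5%) were detected on all arrays, against 141 of 292 without a star (48.3%). They held 0.917% ± 0.029 (SD, n = 4) of the signal, from 0.882% to 0.952% over the arrays. The brightest were miR-30e* at 0.187% ± 0.021 (SD, n = 4) and miR-126* at 0.177% ± 0.016 (SD, n = 4), at ranks 52 and 53.

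Both strands could be compared for 86 pairs of arms. In 27 pairs both were detected on all arrays, in 30 only the arm without a star or the 5p arm, in 4 only the other arm and in 25 neither. Of the 26 pairs with a ratio, the arm named first was higher on all arrays in 21, the other arm in 4, and the order varied in 1. The ratios had a median of 13.2-fold and ran from 0.063 to 572. The widest was that of miR-29a over miR-29a* (572-fold, 467 to 669 over the arrays), followed by miR-30c over miR-30c-1* (346-fold) and miR-30d over miR-30d* (205-fold). MiR-30c comes from 2 hairpins, and miR-30c-1* and miR-30c-2* from 1 each. The same miR-30c signal therefore stands in both ratios and covers both hairpins. MiR-24, also from 2 hairpins, was set against miR-24-2* in the same way. Between replicates the ratios were steady, with a median SD of 0.16 on the log2 scale.

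**Figure D3:**
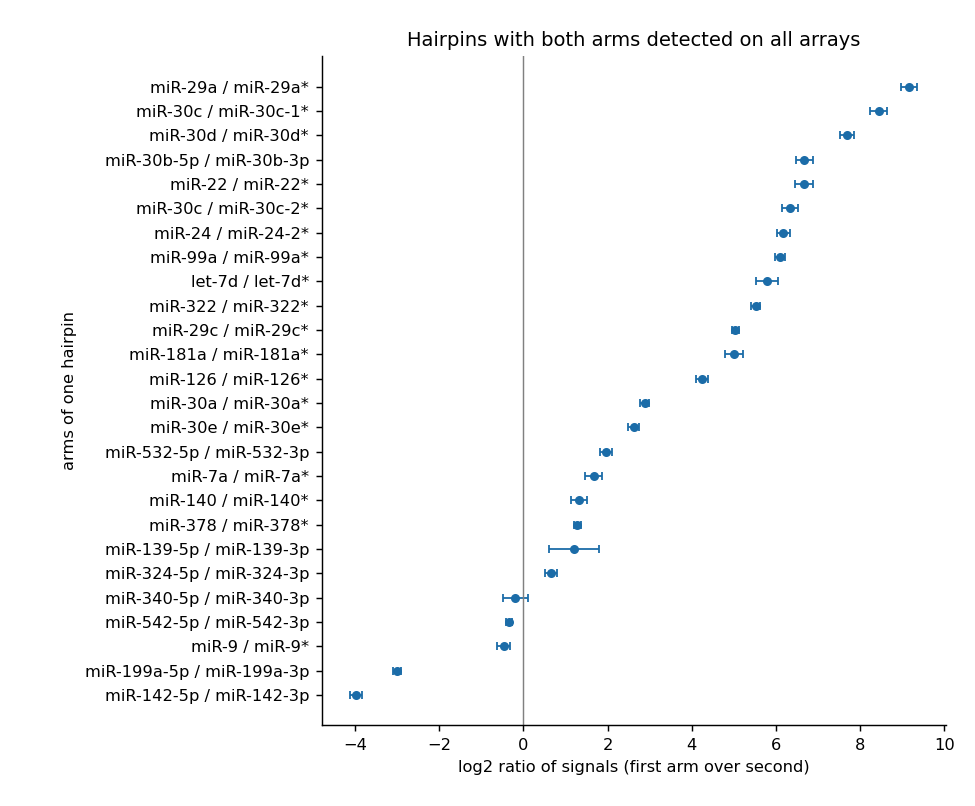
Log2 ratio of the signals of the 2 arms of a hairpin, first-named over second-named arm, for the 26 pairs with both arms detected and a ratio on all arrays. MiR-30c and miR-24 come from 2 hairpins each, and their signals cover both. Points are means and lines SDs over 4 distinct samples; miR-29a lies farthest to the right at 9.16 and miR-142 farthest to the left at -3.98.

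In 4 pairs the second-named arm was the higher one on all arrays. MiR-142-3p, a miRNA of blood cells, exceeded miR-142-5p on all arrays, with a log2 ratio of 5p to 3p of -3.98 ± 0.14 (SD, n = 4). MiR-199a-3p, from the miR-199a and miR-214 locus of stromal cells, exceeded miR-199a-5p (-3.01 ± 0.096, SD, n = 4). MiR-9* exceeded miR-9 (-0.47 ± 0.16, SD, n = 4) at low signals of 32.4 and 24.6, and miR-542-3p exceeded miR-542-5p (-0.35 ± 0.08, SD, n = 4). MiR-340 varied, with its 5p arm higher on 1 of 5 arrays (-0.19 ± 0.29, SD, n = 4). The smallest ratios with the arm named first higher on all arrays were those of miR-324 (1.57-fold), miR-139 (2.30-fold, 1.65 to 4.28 over the arrays), miR-378 (2.43-fold) and miR-140 (2.49-fold). MiR-139 was the least steady of the 26 pairs, with an SD of 0.60 on the log2 scale.

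In 4 hairpins the second arm was the only one detected on all 5 arrays: miR-148b-3p at a median signal of 284, miR-342-3p at 170, miR-674-3p at 21.2 and miR-296* at 20.01. Their first arms were detected on 1 array (miR-148b-5p and miR-674-5p), on 2 arrays (miR-342-5p) or on none (miR-296). In the opposite class, the brightest miRNAs had partners below detection. MiR-1* had a median signal of 9.85 against 56130 for miR-1, and miR-29b-1*, miR-23a* and miR-21* were detected on no array. MiR-151* was counted as detected on all arrays at signals of -0.874 to 4.30 against 1440 for miR-151, so no ratio is given for that pair.

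Lists of miRNAs known to be enriched, though not exclusive, in 1 cell type were used to describe the tissue. MiRNAs known to be enriched in striated muscle (miR-1, miR-133a, miR-133b, miR-206, miR-208 and miR-499) held 23.9% ± 1.97 (SD, n = 4), with 5 of 6 detected on all arrays, from 21.9% in replicate 5 to 26.5% in replicate 4. The defining heart miRNAs miR-1, miR-133a, miR-208 and miR-499 were detected on all arrays. Fibroblast and stromal miRNAs held 14.04% ± 1.49 (SD, n = 4) with 7 of 7 detected. Most of it came from the miR-29 family, which held 11.3% of the whole signal. As parts of the whole signal, miR-29b held 6.05%, miR-29a 3.40% and miR-29c 1.90%. MiR-29b and miR-29a also occur in other cells. Over all 350 miRNAs, 46% were detected on all arrays.

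Vascular and blood miRNAs were all or nearly all detected, in short lists, against 46% of all miRNAs detected on all arrays. The endothelial list held 3.56% ± 0.33 (SD, n = 4), with 3 of 4 detected on all arrays and miR-222 on 2 arrays. The smooth muscle list held 2.12% ± 0.41 (SD, n = 4), with 2 of 2 detected and replicate 5 highest at 2.73%. Nearly all of it was miR-143 at 2.11%, while miR-145 held 0.0093% at a median signal of 40.3. The red cell list, miR-451 and miR-144, held 1.09% ± 0.18 (SD, n = 4), with replicate 2 highest at 1.36%. The leukocyte list held 1.06% ± 0.094 (SD, n = 4) with 5 of the 5 members on the array detected: miR-142-3p, miR-142-5p, miR-150, miR-223 and miR-146a. Blood left in the vessels and cells resident in the wall cannot be told apart.

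The lists of other tissues held small shares. Their counts stand beside 46% of all 350 miRNAs detected on all arrays and 43.7% on none. Differences of the lists from these overall shares were not tested. The epithelial list held 0.018% ± 0.0095 (SD, n = 4) with 1 of 10 detected on all arrays, miR-200c, and 5 on none. MiR-200c had signals of 23.3, 32.0, 29.6, 32.5 and 84.7 in replicates 1 to 5, highest in replicate 5. The liver miRNA miR-122 was detected on no array. The neural list held 0.044% ± 0.0063 (SD, n = 4) with 3 of its 7 counted members detected, miR-128, miR-9 and miR-9*. MiR-128 was the brightest of them, with signals from 113 to 219 and rank 96. MiR-124, the defining neuronal miRNA, was detected on none. MiR-219, also of this list, is named miR-219-5p on the array and was left out of this count and share. It was detected on all 5 arrays, with a median signal of 46.9 and a share of 0.0106%. The islet and endocrine list held 0.012% ± 0.0015 (SD, n = 4) with miR-7a detected at a median signal of 58.9 and miR-375, the defining miRNA of islet cells, detected on no array.

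**Figure D4:**
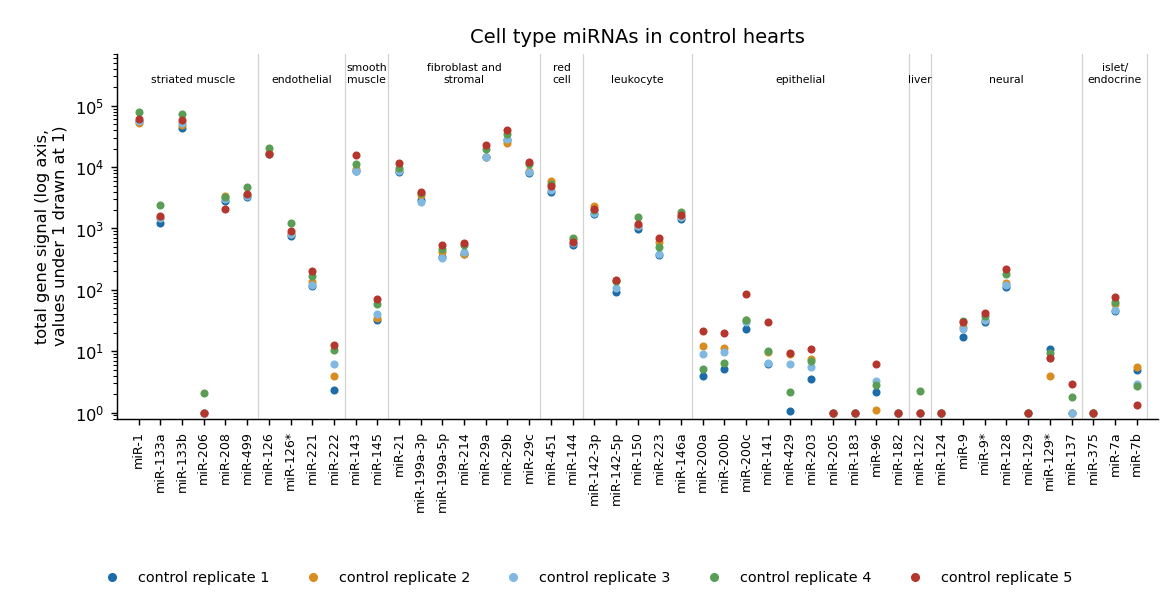
Total gene signal (log axis, values under 1 drawn at 1) of each miRNA of the cell type lists, with 1 point for each of the 5 control arrays. Striated muscle miRNAs reach 77667 and stromal ones 40498, while miR-206 and miR-222 lie low within their lists; the epithelial, liver, neural and islet miRNAs lie at 219 or below.

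The arrays differed little in most miRNAs. The SD over distinct samples of the log2 signal, scaled to the 75th percentile of each array over the 161 miRNAs, had a median of 0.14 (n = 161), which corresponds to a coefficient of variation of 9.94%. It was smaller at higher signal, from 0.21 for the 21 miRNAs under 25 to 0.094 for the 38 from 1000 to 10000 and 0.10 for the 12 over 10000. The error that the scanner software states had a median of 8.09%. Replicates 1 and 3, counted as 1 sample, differed by a median of 0.062 on the log2 scale. Without replicate 5 the median SD was 0.10. For comparison of whole arrays, replicate 4 held 66 of the 161 highest or lowest values, replicate 2 held 62, replicate 3 held 48 and replicate 1 held 37, against 109 for replicate 5.

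**Figure D5:**
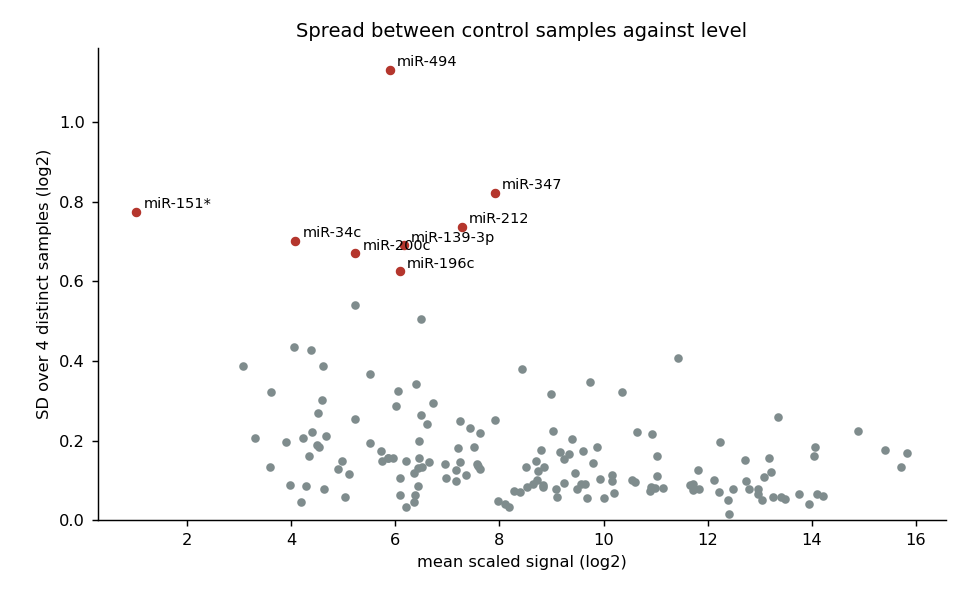
SD over 4 distinct control samples against the mean scaled signal, both on the log2 scale, for the 161 miRNAs detected on all arrays; the 8 with the largest SD are named. MiR-494 lies highest at 1.13 and let-7i lowest at 0.016.

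The 8 most variable miRNAs had median signals from 2.14 to 249, and replicate 5 held the highest or lowest value in 7 of them, all but miR-151*. MiR-494, from the chromosome 6 region, had the largest SD (1.13, n = 4), with signals of 30.9, 28.4, 39.8, 72.8 and 199 in replicates 1 to 5. Replicate 5 was the highest and lay 2.09 above the mean of the others on the log2 scale. MiR-347 (SD 0.82) ran the other way, with 438, 244, 437, 249 and 147, and so did miR-212 (SD 0.74), a miRNA of the heart's response to growth signals, with 230, 146, 243, 214 and 91.4. In both, replicates 1 and 3 were highest and replicate 5 lowest. MiR-132, which is encoded beside miR-212 and has the same seed, was detected on no array (median signal 3.40).

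MiR-151*, miR-34c, miR-139-3p, miR-200c and miR-196c followed, with SDs of 0.78, 0.70, 0.69, 0.67 and 0.63. The SD of miR-151* rests on signals near the floor, with a median of 2.14 and a highest value of 4.30. Its lowest value was under 1 and was set to 1 before log2. Replicate 5 was lowest for miR-34c, with 9.73 against 17.9 to 26.2 on the other arrays, and for miR-139-3p, with 39.9 against 73.3 to 114. MiR-196c is an exception to the likeness of replicates 1 and 3: its signals were 120, 88.6, 40.2, 100.2 and 40.3 in replicates 1 to 5, so replicates 1 and 3 differed here. On the scaled log2 values replicate 3 lay at 5.53 and replicate 1 at 7.14, and replicate 5 was the lowest at 5.15.

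The least variable were let-7i (SD 0.016), miR-29c* (0.032), miR-322* (0.034), let-7a (0.04) and miR-148b-3p (0.042). The scaled values of let-7i lay between 12.38 and 12.44 on the log2 scale on all 5 arrays. Of these, miR-322* was dim, at a median signal of 72.3, and let-7a bright, at 15145.

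MiRNAs detected on only some arrays had signals of at most 114. Of the 36 such miRNAs, 17 were detected on 1 array, 10 on 2, 4 on 3 and 5 on 4. The highest signals among them were those of miR-31, miR-141, miR-211, miR-598-3p and miR-200a. MiR-31 had 13.2, 23.0, 12.7, 19.1 and 114 in replicates 1 to 5, and miR-141, a neighbour of miR-200c, had 29.5 in replicate 5, 9.89 in replicate 2, and 6.32 and 6.35 in replicates 1 and 3, with replicate 4 close to replicate 2. In both, replicate 5 stood above the other arrays. MiR-211 was highest in replicate 2 alone, with 27.7 against 4.51 to 7.20 elsewhere.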

How the data were processed

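MiRNAs were measured on one-colour arrays from 100 ng of column-purified total RNA carrying Cy3, per the labels' protocols. The scans were quantified in Agilent Feature Extraction 9.5.3.1, per the file headers and the submitters' processing notes. The deposited files hold intensity values: a processed signal for every spot, from which background was subtracted and which was left unscaled, and for every miRNA a total gene signal. Of 7953 spots per array, 7000 reported 350 rat miRNAs through 938 probes, with 5 to 20 spots per probe.

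Shares are parts of an array's sum over all miRNAs, where negative values count as 0. For spreads and ratios, arrays were brought to a common 75th percentile of the 161 miRNAs detected on all arrays, values under 1 were set to 1 and log2 was taken. A miRNA was detected by the scanner software's own call. Arrays with a reduced chi-square under 1 against the stated error were averaged. Slides were compared in R 4.3.3 by limma 3.58.1 (two-sided, adjusted by Benjamini-Hochberg at 0.05), and the step was tested on simulated data. The simulated shifts were larger than any slide difference seen here, with the same noise for every miRNA. Smaller shifts were not tried. Clusters join RefSeq GRCr8 hairpins on 1 strand within 10 kb. The genome build behind the array's design is stated in neither labels nor headers, and gene positions come from RefSeq by name. Since the files hold no mean spot signal, the normexp alternative used the median spot signal.

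The members, lists and limits were chosen with earlier results of these data known. Named are the 20 brightest miRNAs, the 8 most and 5 least variable, arm pairs, list members, the 5 leading seed families and 5 partly detected miRNAs with the highest signal on any array; those named besides them were chosen after their values were seen. Python 3.11.15 with pandas 2.3.3 and matplotlib 3.10.9 made the other tables and the plots.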

Additional observations from a re-analysis of the deposited data

Results flagged for a closer look

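Of 75 values checked over the 4 distinct samples, 11 had 1 sample far from the others. Its gap, as a part of the range, exceeded Dixon's 95% critical value. The values checked are not independent, and some overlap, such as miR-133b and its seed family. They also include the 8 most and 5 least variable miRNAs, chosen by their spread in these data. The count can therefore not be set against a chance rate. Replicate 5 was the far sample in 7, replicate 2 in 2 and replicate 4 in 2. In replicate 4 the share of miR-133b was 12.01% against 10.1% to 10.3% in the others, and that of the miR-133 seed family 12.4% against 10.4% to 10.6%. Both ranges rest on the mean of replicates 1 and 3, which themselves differed. The seed family held 9.94% in replicate 1 and 11.3% in replicate 3, so the gap is narrower over the single arrays. In replicate 5 the share of miR-143 was 2.72%, that of the smooth muscle list 2.73% and that of miR-29c 2.14%, each above the others. In replicate 2 the red cell list held 1.36% against 0.977% to 1.02%.

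On the log2 scale, miR-139-3p lay at 5.14 and miR-196c at 5.15 in replicate 5, against 6.39 to 6.57 and 6.34 to 6.48 in the others. For miR-196c the latter range rests on the mean of replicates 1 and 3, which themselves differed in this miRNA (signals of 120 and 40.2). The log2 ratio of miR-139-5p to miR-139-3p was 2.10 in replicate 5 against 0.82 to 0.95. That of miR-199a-5p to miR-199a-3p was -2.86 in replicate 5, and that of miR-542-5p to miR-542-3p was -0.23 in replicate 2. What set these samples apart was not tested.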

How the results depend on the processing

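No paired analysis was possible because a single group was described. With no scaling between arrays the median SD between samples was 0.25 in place of 0.14, and 2 miRNAs in place of 0 differed between slides, both higher on slide 2 with a median shift of all miRNAs of 0.21 (log2). Leaving out 1 replicate at a time gave 161 to 164 detected miRNAs, 56.3% to 57.6% in the 10 brightest, 12.6% to 12.9% for the let-7 family, 0.906% to 0.929% for star arms, a median SD of 0.10 to 0.14 and 0 calls between slides. A miRNA was well above background on all arrays in 145 cases and at a signal of at least 25 in 135. The brightest probe in place of the total gene signal moved the share of 10 of the 20 brightest miRNAs by more than their SD; the mean of all probes moved none (0 of 20). With the 5 arrays as separate samples, the 10 brightest miRNAs held 57.2% ± 1.73 (SD, n = 5) and the let-7 family 12.7% ± 0.52 (SD, n = 5). The random block for replicates 1 and 3 could not be fitted. The brightest probe also took the miR-133 seed family to 13.4%. The shares of the 10 brightest miRNAs, of the let-7 family and of star arms stayed within 1 SD of their main values under the alternatives run, and the number detected within 1.5 times; the shares of the other families and of the cell type lists were not recomputed, apart from the miR-133 seed. Low signals limit what can be said: under 25 the stated error was 19.8%.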

Other observations

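Below the 15 brightest seed families lay several that are known from metabolism, the cell cycle and stress. The pair miR-107 and miR-103, which lie in genes of pantothenate kinases and act on insulin sensitivity, held 0.547% ± 0.03 (SD, n = 4) of the signal, of which miR-107 made 70.0%. MiR-378, encoded in the gene of a mitochondrial coactivator, held 0.194% ± 0.011 (SD, n = 4). The pair miR-101a and miR-101b, which differ by A16G, held 0.524% ± 0.038 (SD, n = 4), with median signals of 2045 and 518.

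The miR-17 and miR-34 families held small shares. The seed of miR-17, miR-20a, miR-93 and miR-106b held 0.293% ± 0.025 (SD, n = 4), led by miR-20a at a median signal of 751, while miR-20b-5p of the same seed was detected on 1 of 5 arrays. In the miR-17 to miR-92a cluster on chromosome 15, 6 of 8 array miRNAs were detected on all arrays, and miR-19b was the brightest at a median of 1212. MiR-17, miR-19b and miR-92a also come from a cluster on chromosome X, and the array cannot tell the copies apart. The miR-34 family, which p53 induces, held 0.276% ± 0.064 (SD, n = 4). Nearly all of it (95.4%) was miR-34a, and its share was highest in replicate 5 (0.361%) and from 0.217% to 0.292% in the others.

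Some close relatives with the same seed differed widely in signal. MiR-130a had a median signal of 4274 and miR-130b of 1.47, and they differ by U11A and A13G. MiR-92a had 720 and miR-92b 3.15, with U10C and G21C between them, and miR-196c had 88.6 against 5.28 for miR-196a, which differs by G12A alone. In the miR-191 and miR-425 cluster on chromosome 8, miR-425 had a median signal of 69.5, and miR-191 was detected on no array.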
